A study of Mus musculus with 6 samples.

Results

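Gene deserts are long stretches of a chromosome that hold no protein-coding gene. They are known to carry enhancers, short stretches of open DNA bound by transcription factors, that act over long distances, often on genes of development and growth. Open DNA can be mapped by ATAC-seq, in which the transposase Tn5 inserts sequencing adapters where chromatin is accessible. Here the gene-desert regions of one ATAC-seq table were described: those with their nearer edge more than 100 kb from every protein-coding transcript start of GENCODE M21 (mm10) and with no overlap with a protein-coding gene body. They numbered 1154 of 10016 listed regions, or 11.5%, while desert sequence made up 31% of the genome.

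The cells were mouse fetal liver cells transformed by MLL-ENL, a leukaemic fusion protein, and were grown with murine IL-3 at 10 ng/ml. WT cells were compared with dKO cells, in which Cebpa and Cebpb, which encode the factors C/EBPα and C/EBPβ, were both deleted and which carried exogenous GFP. No vector is named for the WT cells, so that GFP and the genotype cannot be told apart. The dKO lines grew out as clones that express the related factor C/EBPε, and which clones were used here is not given in the sources used here. A further group of dKO cells with GFP and the rat C/EBPβ isoform LAP* was not analysed here. There were 2 libraries in each group, each from 50000 sorted cells. The depth of each library is not in the table.

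The table gave 1 value per group and region, the log2 of the mean normalised reads of the 2 libraries. No spread between libraries could be obtained from it, so that no error and no test are given for any single region. Only regions past the submitters' significance threshold were in the table, and each region was therefore either higher or lower in dKO. Intervals given with shares are 95% Wilson intervals, which cover counting error only, since neighbouring regions are not independent. The promoters of the deleted genes were in the table: the region over the Cebpa start had a level of 9.99 in WT and -0.15 in dKO, and that over the Cebpb start 8.60 and 3.37. The value of -0.15, the lowest in both groups, stands for 1 read per library, and a level of up to 1.43, which is 3 reads per library, was treated as a floor.

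C/EBP proteins are dimers of the basic leucine zipper class that drive myeloid differentiation. AP-1, formed by FOS and JUN proteins, belongs to the same class but binds another sequence. PU.1 and RUNX1 are further factors with central roles in myeloid cells. Short spellings of their binding motifs were searched on both strands in the central 200 bp of each region: TTACNNAA or TTGCNNAA for C/EBP, TGACTCA or TGAGTCA for AP-1, GAGGAAGT for PU.1 and AACCACA for RUNX. A match is a description of the letters and does not show that a factor was bound.

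The sequences printed here are the central 200 bp of regions with the largest differences, chosen because they hold at least 1 of these 4 motifs, with the matches in capitals. They were read from the forward strand of mm10. Of the 10 gene-desert regions most strongly higher in dKO, 7 held such a match, and the first 4 of these follow. The first holds 2 AP-1 matches, the second 1 PU.1 and 1 RUNX match, and the other two 1 AP-1 match each.
chr16:47394486-47394685: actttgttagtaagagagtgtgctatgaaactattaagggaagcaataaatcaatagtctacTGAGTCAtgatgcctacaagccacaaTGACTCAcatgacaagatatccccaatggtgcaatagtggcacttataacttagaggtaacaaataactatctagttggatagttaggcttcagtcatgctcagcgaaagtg
chr16:79878143-79878342: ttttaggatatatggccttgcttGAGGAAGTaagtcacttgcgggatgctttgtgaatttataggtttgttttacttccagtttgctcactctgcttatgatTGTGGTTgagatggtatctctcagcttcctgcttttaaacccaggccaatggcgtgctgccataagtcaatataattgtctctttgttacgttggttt
chr8:31373403-31373602: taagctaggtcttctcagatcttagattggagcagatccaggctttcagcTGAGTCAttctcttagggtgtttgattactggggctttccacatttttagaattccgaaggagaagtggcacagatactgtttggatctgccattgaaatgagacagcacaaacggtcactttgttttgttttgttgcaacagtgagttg
chr16:25532074-25532273: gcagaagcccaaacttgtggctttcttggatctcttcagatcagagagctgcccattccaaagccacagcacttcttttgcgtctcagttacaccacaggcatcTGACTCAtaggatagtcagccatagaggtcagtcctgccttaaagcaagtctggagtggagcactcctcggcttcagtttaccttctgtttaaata

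Of the 10 regions most strongly lower in dKO, 4 held a match, in each case to C/EBP. The first 3 of them hold 2 C/EBP matches each and the last 1.
chr9:52443337-52443536: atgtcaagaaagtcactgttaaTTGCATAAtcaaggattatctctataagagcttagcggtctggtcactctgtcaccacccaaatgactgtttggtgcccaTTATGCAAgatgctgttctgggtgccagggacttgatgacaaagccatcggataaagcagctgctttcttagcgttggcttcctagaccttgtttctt
chr13:52183710-52183909: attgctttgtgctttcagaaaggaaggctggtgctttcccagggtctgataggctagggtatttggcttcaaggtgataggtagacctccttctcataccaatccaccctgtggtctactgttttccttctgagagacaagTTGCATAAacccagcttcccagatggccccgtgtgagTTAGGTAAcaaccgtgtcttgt
chr4:105997104-105997303: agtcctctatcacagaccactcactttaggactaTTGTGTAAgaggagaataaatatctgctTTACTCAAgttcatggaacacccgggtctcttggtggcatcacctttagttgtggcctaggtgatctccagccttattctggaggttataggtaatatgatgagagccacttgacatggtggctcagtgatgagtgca
chr9:83684668-83684867: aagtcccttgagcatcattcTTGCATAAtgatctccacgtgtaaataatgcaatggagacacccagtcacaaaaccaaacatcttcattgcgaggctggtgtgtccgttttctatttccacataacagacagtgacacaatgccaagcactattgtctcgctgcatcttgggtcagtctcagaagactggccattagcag

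Among the 1154 gene-desert regions, 770 were higher in dKO and 384 lower. The share higher was 66.7% (64 to 69.4), beside 60.3% of all 10016 listed regions, and the share lower was thus 33.3%, beside 39.7% of all listed regions. Among regions higher in dKO the median level was 3.86 in WT and 5.93 in dKO, with a median log2 difference, here without the floor, of 1.98 and a range of 0.58 to 5.51. Among regions lower in dKO the median level was 5.79 in WT and 3.60 in dKO, with a median difference of -2.14 and a range of -6.43 to -0.60. Over all listed regions the corresponding medians were 1.58 and -1.85. A difference of at least 1 on the log2 scale, which is 2-fold, was seen upward in 715 gene-desert regions, or 62%, beside 49.6% of all listed regions. It was seen downward in 361, or 31.3%, beside 35.9%.

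**Figure D1:**
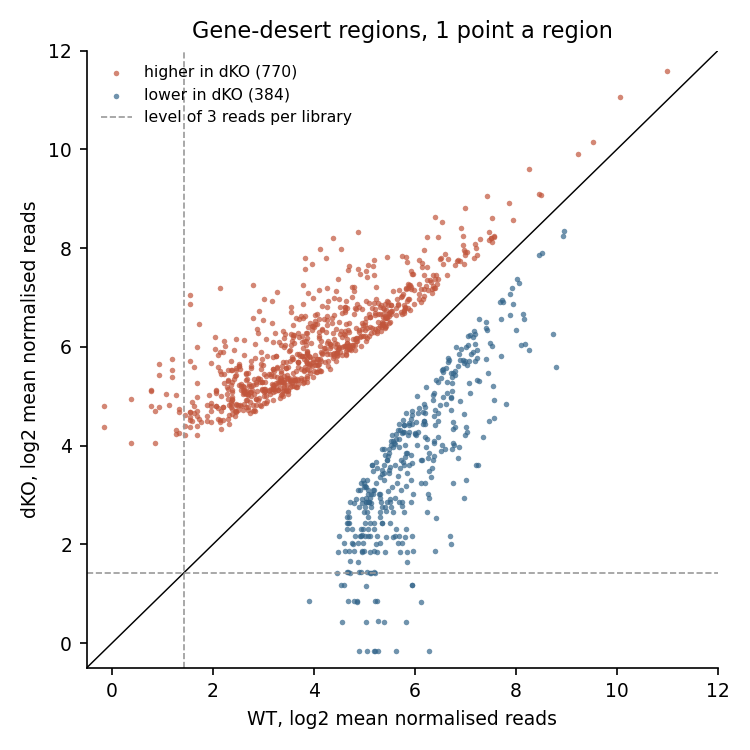
Level of each gene-desert region in WT (horizontal axis) and dKO (vertical axis), as log2 mean normalised reads, with 1 point a region. The line marks equal levels and the dashed lines the level of 3 reads per library; 770 points lie above the line and 384 below it, and no point lies next to it because only regions past a threshold were listed.

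The level of the regions was lower in gene deserts. The mean level of both groups had a median of 5.21 in gene-desert regions and of 5.52 in the listed regions elsewhere. When all listed regions were split by level into 4 classes of equal size, the median difference of regions higher in dKO in the lowest class, up to 4.69, was 2.38 in gene deserts and 2.41 elsewhere. In the next classes it was 1.94 and 1.72, then 1.56 and 1.37, and in the highest class, above 6.40, it was 1.19 and 0.93. For regions lower in dKO the medians from the lowest to the highest class were -2.69, -2.03, -1.77 and -1.25 in gene deserts and -2.50, -1.88, -1.43 and -1.04 elsewhere. Within the classes the gene-desert differences were thus the larger in 7 of these 8 comparisons, for which no test was made. Levels were not matched within a class, and a lower level went with larger differences. The direction also varied with level. In the lowest class 63.9% (58.8 to 68.7) of 363 gene-desert regions were higher in dKO and 51.7% (49.6 to 53.8) of 2142 other regions, whereas in the highest class the shares were 66.3% (59.3 to 72.7) of 187 and 68.6% (66.7 to 70.5) of 2317. The surplus of higher regions in gene deserts was present in the 3 lower classes, with intervals apart in each, and not detectable in the highest.

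The share higher in dKO did not grow evenly with distance from coding genes. Listed regions over a protein-coding gene were higher in dKO in 57% (55.7 to 58.3) of 5495 cases. Intergenic regions up to 100 kb from a coding start were higher in 63.4% (61.7 to 65) of 3367 cases, an interval that overlaps that of the gene-desert regions. Within these, the share was 66% (63.7 to 68.2) at 10 to 50 kb and 55.9% (52.4 to 59.4) at 50 to 100 kb. Inside the deserts it was 62.1% (58.1 to 65.9) of 593 regions at 100 to 200 kb, 68.8% (64.2 to 73) of 423 at 200 to 500 kb, and 80.4% (73 to 86.2) of 138 beyond 500 kb. The interval beyond 500 kb met that at 200 to 500 kb at its edge and lay above those of the classes nearer than 200 kb.

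**Figure D2:**
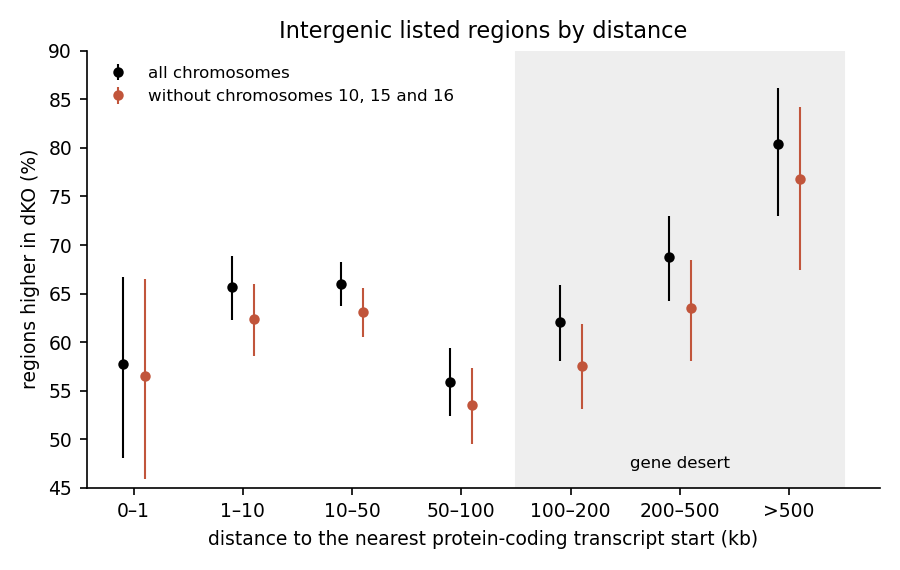
Share of intergenic listed regions that were higher in dKO (vertical axis, percent; the axis starts at 45) by distance to the nearest protein-coding transcript start (horizontal axis, kb), with 95% Wilson intervals. Black points hold all chromosomes and red points leave out chromosomes 10, 15 and 16; the shaded classes are the gene-desert regions, where the share went from 62.1% to 80.4% with all chromosomes and from 57.5% to 76.8% without the 3.

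Chromosomes 10, 15 and 16 stood apart. On these 3 together, 217 of 258 gene-desert regions, or 84.1%, were higher in dKO, with 84.8% on chromosome 10, 82.8% on chromosome 15 and 85.1% on chromosome 16. Listed regions outside the deserts also leaned upward on these chromosomes, with 81.6%, 68.8% and 71% higher in dKO. Without them 61.7% (58.5 to 64.8) of 896 gene-desert regions and 56.1% (55 to 57.3) of 7320 other listed regions were higher in dKO, and the gene-desert share beyond 500 kb was 76.8% (67.4 to 84.2) of 95. On chromosome 11, 14 of 38 gene-desert regions were higher, or 36.8% (23.4 to 52.7), beside 64.3% of the other listed regions there, and on chromosome 4, 28 of 58, or 48.3% (35.9 to 60.8), beside 46.2%. Gene-desert regions were more often higher than the other listed regions on 15 of 20 chromosomes. Whether the number of chromosome copies differed between the lines was not tested.

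The 2 directions differed in their motifs. A C/EBP match was held by 183 of 384 regions lower in dKO, or 47.7% (42.7 to 52.7), and by 206 of 770 higher in dKO, or 26.8% (23.7 to 30). An AP-1 match was held by 27 of the lower regions, or 7.03% (4.88 to 10), and by 189 of the higher, or 24.5% (21.6 to 27.7). For PU.1 the shares were 4.17% (2.58 to 6.66) and 14% (11.8 to 16.7), and for RUNX 13% (10 to 16.8) and 16.6% (14.2 to 19.4). The intervals of the 2 directions were apart for C/EBP, AP-1 and PU.1 and overlapped for RUNX.

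All 200-bp windows of desert sequence gave the background for these letters. They held a C/EBP match in 21.1%, AP-1 in 2.85%, PU.1 in 1.13% and RUNX in 4.32%. Windows 2 kb to either side of the regions were close to this, with C/EBP in 19.5% beside lower and 21.1% beside higher regions, and AP-1 in 3.78% and 3.51%. The C/EBP share of regions higher in dKO was thus nearer to the desert background than to that of the lower regions.

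Listed regions outside the deserts were compared in the same way. Other listed regions held C/EBP in 40.1% (38.5 to 41.7) of those lower and 19.2% (18.1 to 20.3) of those higher in dKO, both below the gene-desert shares. For AP-1 their shares were 4.42% (3.8 to 5.14) and 27% (25.8 to 28.2), and for PU.1 3.25% (2.72 to 3.88) and 13% (12.1 to 13.9), with intervals that overlap those of the gene-desert regions. The gene-desert regions were poorer in G and C, with a median of 46% against 49.5%, and held 1.16 CpG per 100 bp against 2.05. RUNX matches were likewise more frequent in lower gene-desert regions than in other lower regions, 13% against 8.62% (7.74 to 9.58). Other regions higher in dKO held RUNX in 13.4% (12.5 to 14.4), so that the directions were apart for RUNX outside the deserts. Their part in the motif shares of base composition was not tested.

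**Figure D3:**
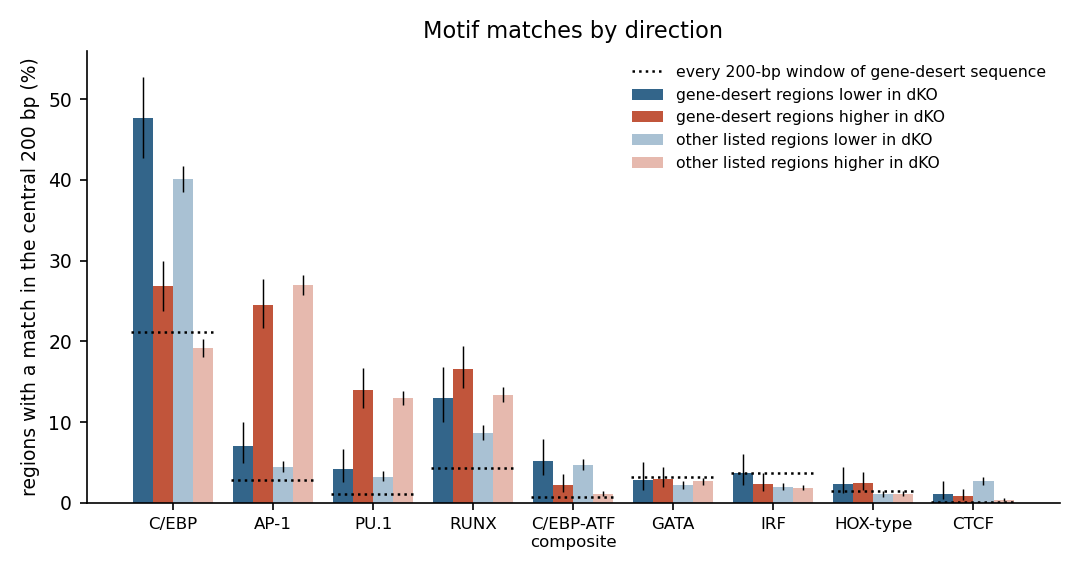
Share of regions with a motif match in the central 200 bp (vertical axis, percent) for 9 motifs, by direction and location, with 95% Wilson intervals; dotted lines give the share of all 200-bp windows of desert sequence. C/EBP matches were held by 47.7% of lower and 26.8% of higher gene-desert regions, and AP-1 matches by 7.03% and 24.5%.

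The direction differed between regions with and without a match. Of 765 gene-desert regions with no C/EBP match, 26.3% (23.3 to 29.5) were lower in dKO, of 299 with 1 match 43.8% (38.3 to 49.5), and of 90 with 2 or more 57.8% (47.5 to 67.5). For AP-1, 61.9% (58.8 to 65) of 938 regions with no match were higher in dKO, 85.3% (79.5 to 89.7) of 184 with 1 match, and all 32 regions with 2 or more (89.3 to 100). For both motifs the intervals for 1 match and for 2 or more overlapped at their edges. Where both motifs were present, 47 of 61 regions, or 77% (65.1 to 85.8), were higher in dKO. With C/EBP alone 159 of 328 were higher, or 48.5% (43.1 to 53.9), and with AP-1 alone 142 of 155, or 91.6% (86.2 to 95). A region with neither motif was higher in 69.2% (65.4 to 72.7) of 610 cases, which is close to the share over all gene-desert regions.

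Matches to the other motifs were few. The C/EBP-ATF composite TGATGCAA, which can overlap a C/EBP match only in part, was held by 20 lower regions, or 5.21% (3.4 to 7.91), and by 17 higher ones, or 2.21% (1.38 to 3.51), beside 0.69% of desert windows. GATA, spelled AGATAAG, was held by 2.86% of lower and 2.99% of higher regions, HOX-type TGATTTAT by 2.34% and 2.47%, and IRF by 3.65% and 2.34%. A CTCF match, the motif of the factor that anchors chromatin loops, was held by 4 lower regions, or 1.04% (0.406 to 2.65), and 6 higher ones, or 0.779% (0.358 to 1.69). In other listed regions the CTCF shares were 2.64% (2.17 to 3.22) and 0.361% (0.231 to 0.563), so that the difference by direction seen there was not detectable in the deserts.

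Repeat-masked sequence was more common in gene-desert regions higher in dKO. The mean masked share was 20.6% in the higher and 12% in the lower regions, and 90 of the 100 regions with over 50% masked bases were higher, or 90% (82.6 to 94.5). Regions outside the deserts with as much masking were higher in 78.7% (74.7 to 82.3) of 447 cases. Among the remaining gene-desert regions 64.5% (61.6 to 67.3) of 1054 were higher. The 90 masked, higher regions held C/EBP in 40% (30.5 to 50.3) and AP-1 in 11.1% (6.15 to 19.3), whereas the 680 other higher regions held them in 25% (21.9 to 28.4) and 26.3% (23.2 to 29.8). Of the 10 masked, lower regions 1 held C/EBP, or 10% (1.79 to 40.4), beside 48.7% (43.6 to 53.7) of the 374 other lower regions. How reads from repeats were placed by the alignment could not be examined in this table.

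The strongest single differences upward were on chromosome 16. The region chr16:47394401-47394770, between Nectin3 and Dppa4 and 889 kb from the nearest coding start, had a level of 1.54 in WT and 7.05 in dKO, a 45.6-fold difference. It is the first of the printed sequences, with 2 AP-1 matches. The second, chr16:79878050-79878435 between Tmprss15 and Ncam2, went from 1.54 to 6.88, or 40.5-fold, and the next, chr8:31373266-31373738 between Fut10 and the growth factor gene Nrg1, from 2.14 to 7.19, or 33.1-fold. All 10 strongest differences upward were at least 17.9-fold, lay on 8 chromosomes, and held no C/EBP match. AP-1 was held by 3 of them, RUNX by 3 and PU.1 by 2.

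The strongest differences downward included 4 regions inside Firre, the gene of a long noncoding RNA of the X chromosome that is known for its role in nuclear organisation. Firre held 6 gene-desert regions within 17.4 kb, all lower in dKO. Their WT levels were between 5.28 and 6.87, and 5 of the 6 were at or under the floor in dKO. The region chrX:50614916-50615203 went from 6.28 to -0.15, which is at least 28.7-fold lower against the floor, and chrX:50619940-50620354, the exception, from 6.87 to 3.98, or 7.41-fold lower. None of the 6 held a C/EBP, AP-1 or CTCF match in its central 200 bp.

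Outside Firre, the largest decrease after levels were raised to the floor was at chr11:114258214-114258583, between Sdk2 and the ribosomal protein gene Rpl38, from 6.72 in WT to 2.01 in dKO, or 26.2-fold. It held none of the 4 motifs. The printed regions followed, with chr9:52443217-52443655 lower by at least 25.7-fold, chr13:52183570-52184048, on the far side of Gadd45g, by 23.1-fold, chr4:105996911-105997495 also by 23.1-fold, and chr9:83684560-83684975 by at least 22.7-fold. C/EBP matches were held by 4 of the 10 strongest decreases and AP-1, PU.1 and RUNX matches by none.

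Neighbouring gene-desert regions mostly went the same way. Of 335 pairs with edges up to 50 kb apart, 304 had the same direction, or 90.7% (87.2 to 93.4), beside 82.2% (80.9 to 83.4) of 3455 such pairs among other listed regions. At up to 20 kb the shares were 92.9% (88.6 to 95.6) and 87.7% (86.1 to 89), with intervals that overlap. The agreement that would follow from the direction counts alone was not computed. It differs between the sets, since 66.7% of gene-desert and 59.4% of other listed regions were higher in dKO. The closest pair of opposite direction lay 2802 bp apart beyond Id2, a gene of an inhibitor of basic helix-loop-helix factors, where chr12:25264958-25265445 was lower by 1.42 and chr12:25268248-25268666 higher by 1.56 on the log2 scale.

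Of the 557 intervals between coding genes that held a gene-desert region, 137 held 3 or more. All regions were higher in dKO in 68 of these, all were lower in 23, and 46 held both directions. Runs of at least 4 regions with successive edges up to 50 kb apart numbered 32 and took in 152 regions. In 22 runs every region was higher in dKO, in 8 every region was lower, and 2 runs held both, among them that between Rybp and Shq1. Coding genes are named here for position only, and no target gene is assigned.

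**Figure D4:**
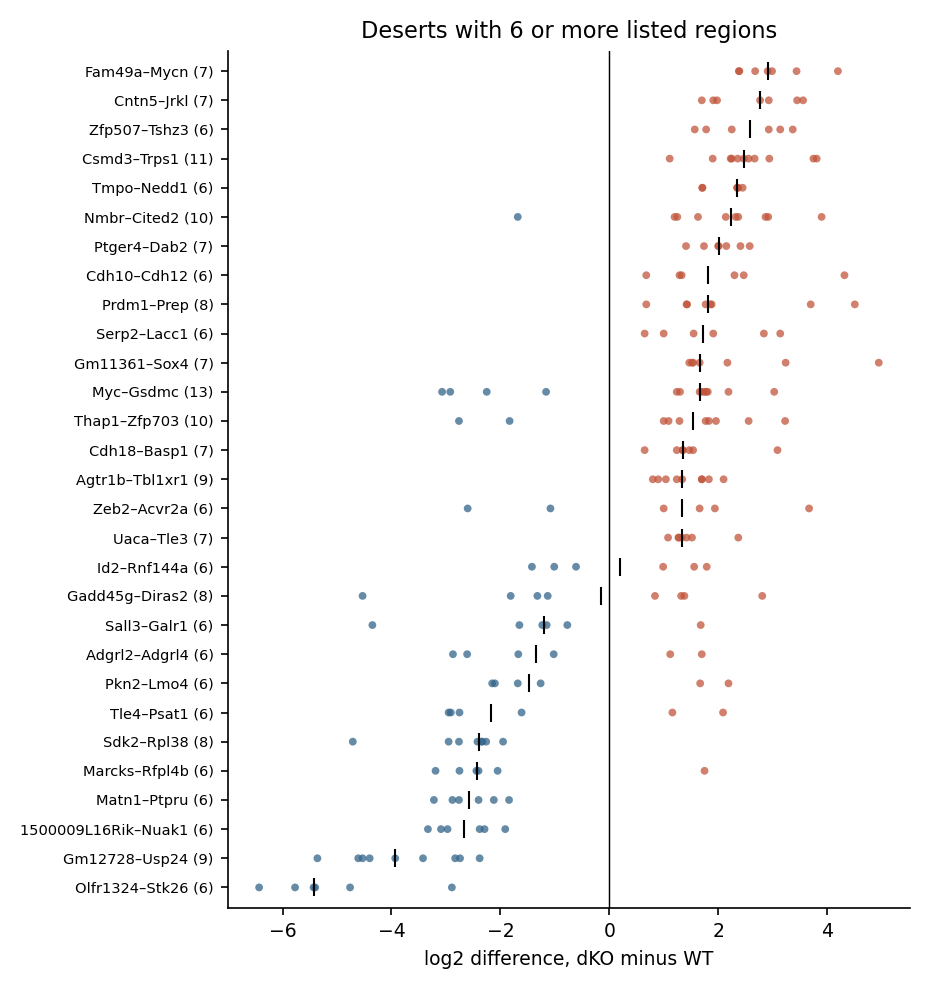
Log2 difference, dKO minus WT (horizontal axis), of each region in 29 of the 30 intervals between coding genes that held 6 or more gene-desert regions, before levels were raised to the floor, with 1 point a region, red where higher and blue where lower in dKO, and a tick at the median. The number of regions is in brackets; of the 29 intervals shown, 13 held higher regions only, 5 lower regions only and 11 both, as did the interval not shown.

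The interval between Myc and Gsdmc held 13 gene-desert regions, more than any other. Myc encodes a factor that drives growth and is known to be controlled by remote enhancers in blood cells. Over Pvt1, the long noncoding RNA gene next to Myc, 3 of 4 regions were lower in dKO. The region 121 kb from the Myc start had 5.82 in WT and 4.66 in dKO, that at 152 kb 5.35 and 2.43, and that at 244 kb 5.10 and 2.85, whereas the one at 267 kb had 4.95 and 6.76. Farther out, the regions at 407 and 577 kb were higher by 2.19 and 1.75 and the one at 709 kb was lower by 3.07. The 6 regions between 1513 and 1694 kb were all higher, by 1.24 to 3.03, and all lay over the noncoding gene Gm41335. A C/EBP match was held by the lower regions at 152 and 709 kb and by the higher region at 1513 kb, and AP-1 by the 2 regions at 1680 and 1694 kb.

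**Figure D5:**
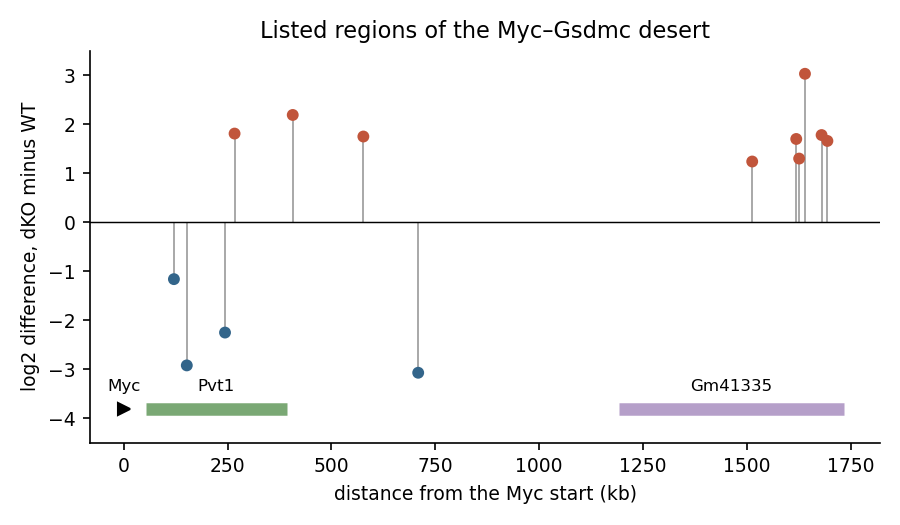
Log2 difference, dKO minus WT (vertical axis), of the 13 gene-desert regions between Myc and Gsdmc against the distance of their left edge from the Myc start (horizontal axis, kb), with the bodies of Pvt1 and Gm41335 drawn as bars. The 4 lower regions lie between 121 and 709 kb, and the 6 regions between 1513 and 1694 kb were all higher.

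In several intervals, named after their values were seen, all regions were higher in dKO. Between Fam49a and Mycn, a gene related to Myc, all 7 regions were higher in dKO, by 2.38 to 3.97 with levels raised to the floor. They lay within 84.5 kb, with a median level of 2.68 in WT and 5.36 in dKO. The region chr12:12496524-12497218 had the highest dKO level of them, with 4.88 in WT and 8.32 in dKO. Beside Sox4, which encodes a factor active in blood progenitors, all 7 regions of the interval lay over the noncoding gene 2610307P16Rik and were higher in dKO. Their WT levels were between -0.15 and 5.95 and their dKO levels between 4.80 and 7.47. Between Prdm1, the gene of the repressor BLIMP1, and Prep all 8 regions were higher, by 0.68 to 4.01 with levels raised to the floor, with 6 of the 8 over the noncoding gene Gm35154.

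Deserts that held many regions ranged from uniform to mixed. Between Csmd3 and Trps1, 1863 kb without a coding gene, all 11 regions were higher in dKO, with WT levels of 2.30 to 4.90 and dKO levels of 4.55 to 7.58, and 6 of the 11 held a C/EBP match. Between Agtr1b and Tbl1xr1, a subunit gene of corepressor complexes, all 9 were higher, by 0.80 to 2.10. Between Nmbr and Cited2, which encodes a transcriptional coregulator, 9 of 10 were higher, and the exception, chr10:17326665-17327199, had 6.18 in WT and 4.50 in dKO. Between Thap1 and Zfp703, 8 of 10 were higher. Both lower regions held a C/EBP match, and so did 1 of the 8 higher ones. Between Zeb2 and Acvr2a, an interval of 3697 kb, 4 of 6 were higher, and between Adgrl2 and Adgrl4, an interval of 2447 kb, 2 of 6.

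Uniform decreases were seen in fewer deserts. All 9 regions between Gm12728 and Usp24 were lower in dKO, by 2.38 to 4.53 with levels raised to the floor, with WT levels of 4.69 to 6.39. All 8 between Sdk2 and Rpl38 were lower, by 1.95 to 4.71, and so were all 6 between Matn1 and Ptpru, by 1.84 to 3.22. The intervals beside Id2 and between Gadd45g, a stress-response gene, and Diras2 were split evenly, with 3 of 6 and 4 of 8 regions higher.

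Genes from a list of blood-cell transcription factors flanked 104 gene-desert regions. Of these, 73 were higher in dKO, or 70.2% (60.8 to 78.1), with an interval that includes the share of all gene-desert regions. The list also held Zfp36l2, the gene of an mRNA decay factor, with 4 regions, all higher. Of the 34 genes, 17 had higher regions only, 10 lower only and 7 both. All 5 regions beside Bcl11a, a repressor gene of stem and lymphoid cells, were lower, by 1.36 to 2.56, and all 3 beside Runx1, by 1.55 to 2.93. Beside Klf6 all 3 were higher, by 1.46 to 1.93, and beside Bcl6, the gene of a repressor of lymphoid and myeloid cells, all 4, by 0.99 to 1.98.

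Other lists were smaller or less tied to blood cells. No gene of the C/EBP family flanked a gene-desert region. Genes of myeloid effector and surface proteins flanked 11, of which 10 were higher in dKO, or 90.9% (62.3 to 98.4), an interval that includes the 66.7% of all gene-desert regions. They lay beside only 3 genes, Cxcr4, Fn1 and Kit. Beside Cxcr4, a chemokine receptor gene, the 3 regions were higher by 1.68 to 2.00. Cytokine and growth factor receptor genes flanked 7, those beside Kit included again, of which 4 were higher, or 57.1% (25 to 84.2). Genes taken by symbol prefix alone as those of neuronal adhesion and guidance, many of them beside large deserts, flanked 105 regions. Of these 82 were higher, or 78.1% (69.3 to 84.9). This is close to the 77.3% of all 374 gene-desert regions in intervals over 1 Mb, while 61.7% of the 780 in shorter intervals were higher. Of the 45 genes, 27 had higher regions only, 8 lower only and 10 both. The regions beside Csmd3 and the cadherin genes Cdh10, Cdh12 and Cdh18 were all higher, those beside the cadherin genes Cdh6 and Cdh9 were mixed, with 3 of 5 and 2 of 4 higher, and the 3 beside Plxna2 were all lower.

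Annotated noncoding genes or pseudogenes overlapped 242 gene-desert regions, or 21%, and 66.1% (59.9 to 71.8) of these were higher in dKO, beside 66.9% (63.8 to 69.9) of the 912 over no annotated gene. Only 44, or 3.81%, lay within 1 kb of the start of any annotated transcript.

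Of the 5 regions farthest from a coding start, 3 were lower and 2 higher in dKO, and the 3 lower ones were neighbours at a single locus. These, chr14:82156940-82157300, chr14:82201134-82201855 and chr14:82220803-82221305, lay between Olfm4 and Pcdh17 at up to 2221 kb from a start. They had levels of 6.24, 7.19 and 6.75 in WT and 2.66, 5.71 and 4.06 in dKO. The next 2 by distance, at 1653 and 1637 kb, were higher in dKO by 1.69 and 2.18.

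At the distance limit of 100 kb, the 2 members just inside were chr18:58455312-58455811, higher by 3.22 at 100446 bp, and chr5:75877622-75877864, between Kit and Kdr, lower by 3.23 at 100594 bp. The 2 regions just outside it were chr2:18492788-18493147, higher by 3.31 at 99958 bp, and chr14:72391614-72392029, lower by 1.95 at 99809 bp.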

How the data were processed

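Chromatin accessibility was measured by ATAC-seq. According to the study's methods and the submitters' processing notes, samples were preprocessed with PiGx, aligned with Bowtie2 to mm10, and peaks were called with MACS2. The authors compared groups with DiffBind 2.14.0 and listed regions past a corrected p of 0.05. The deposited log2 values are the log2 of the mean normalised reads of the 2 libraries of a group, so replicates could not be compared and the depth of each library is unknown. The other deposited columns hold the authors' fold changes, p-values and false discovery rates and were not used. Of the 2 deposited tables the second was identical to the first and was not used.

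Members and gene lists were chosen with earlier results of these data known. Distances were taken from region edges to GENCODE M21 transcript starts. Differences are dKO minus WT log2 levels. Mean levels are the log2 of the linear mean of both groups. Levels up to the floor of 3 reads per library, 1.43 on the log2 scale with a tolerance of 0.01, were raised to it before folds were ranked. Motifs were searched on both strands with soft-masked GRCm38 sequence (pysam 0.24.0, numpy 2.4.6, scipy 1.17.1), and the search was tested on simulated data. Regions to be named singly were drawn from the 10 largest rises and 10 largest falls, the 5 highest levels per direction, the 5 farthest from a coding start, runs of at least 4, and the 2 on either side of the limit. Not all of these are printed. Intervals between genes and single regions within them were named after their values were seen, and 1 of them is not reported here. Alternatives changed the distance limit, annotation, floor, level, chromosomes, centring and motif window.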

Additional observations from a re-analysis of the deposited data

How the results depend on the processing

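Only group means were at hand, so no test was repeated, and alternatives that need libraries (leaving out a replicate, a count model) were not run. No paired analysis was possible because replicate numbers are lost in group means. Of 65 recomputed values, 36 stayed within the counting interval of the value reported and 29 did not. Only the share higher in dKO could have changed direction, and it lay between 61.7% and 80.4% in its 12 alternatives.

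The share higher in dKO, 66.7%, was 62.4%, 71.7% and 80.4% with limits of 50, 200 and 500 kb, 73% with starts and bodies of all annotated genes, and 62.3% after centring on the median difference of all listed regions, which sets the share of all listed regions to 50% and gave 48.4% of those outside the deserts. It was 61.7% without chromosomes 10, 15 and 16, an alternative chosen after seeing the data, where the other listed regions gave 56.1%. The median of higher regions, 1.98, was 1.87, 2.06 and 2.18 with limits of 50, 200 and 500 kb, 2.25 with all annotated genes and 1.69 without regions under the lower quartile of level. The median of lower regions, -2.14, was -2.00 at 50 kb, -1.68 at 500 kb, -2.38 with all annotated genes and -1.77 without those regions.

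The C/EBP share of lower regions, 47.7%, was 64.3% over whole regions, 32% in the central 100 bp, 54.7% beyond 200 kb and 0.781% for the palindrome TTGCGCAA alone. That of higher regions, 26.8%, was 43.6%, 16.5%, 30.1% and 0%, and 20.5% with masked bases left out. The AP-1 share of lower regions, 7.03%, was 13.3% over whole regions and 3.91% in the central 100 bp, and that of higher regions, 24.5%, was 33.2% and 16.8%. C/EBP was the more frequent in lower and AP-1 in higher regions under each of these. For the palindrome this rested on 3 of 384 lower and 0 of 770 higher regions, with intervals that overlap. The share of neighbours with the same direction, 90.7%, was 83.6% after centring, and no centred share is given for other listed regions. Centring moved the zero line over the same regions, and the other alternatives took in other regions or bases; the cause was not tested further.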

Other observations

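The 2 gene-desert regions of highest level lay near the first sequenced bases of their chromosomes. The region chr6:3200722-3201749 had levels of 10.99 in WT and 11.58 in dKO and ranked 3 among all listed regions by level. The region chr18:3005175-3006067 ranked 7, with 10.07 and 11.07. Further gene-desert regions near the first sequenced bases, up to position 3401618, lay on chromosomes 1, 5, 13, 16 and 19. All of these were also higher in dKO, by 0.89 to 2.42. Whether reads were placed correctly at such positions was not tested. The highest gene-desert region lower in dKO was chr17:47177471-47178252, with 8.95 in WT and 8.34 in dKO, over Trerf1, which GENCODE M21 classes as a processed transcript, and 167 kb from the nearest protein-coding start. Matches within 25 bp of the region centre made up 34.6% (28.8 to 41) of 228 AP-1 matches and 34.4% (27.5 to 42) of 160 RUNX matches in gene-desert regions higher in dKO, where 26.3% of the positions lie. For C/EBP the central share was 32.1% (26.5 to 38.2) of 240 matches in lower and 31% (25.6 to 37.1) of 248 in higher regions, where 26.4% of the positions lie, and for PU.1 in higher regions 28.1% (21.1 to 36.5) of 128. In lower regions the shares were 40.7% (24.5 to 59.3) of 27 AP-1, 22.6% (13.5 to 35.5) of 53 RUNX and 18.8% (6.59 to 43) of 16 PU.1 matches.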
